A study of Bos taurus with 6 samples.

Results

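The bovine MHC class II DQ genes were represented by 3 genes of the 6337 named in the deposited values, with 9 of their 12763 probe sets. They were taken as every probe set whose annotation gives a single gene symbol, and that symbol is BOLA-DQA1, BOLA-DQA2 or BOLA-DQB1. BOLA-DQA1 had 2 probe sets, BOLA-DQA2 had 2 and BOLA-DQB1 had 5. This rule uses the annotation alone, but the 3 genes were chosen with earlier results of these data known. All 9 probe sets are described below.

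MHC class II molecules are heterodimers of an alpha and a beta chain on B cells, monocytes, macrophages and dendritic cells, and they present peptides to CD4+ T cells. In cattle (BoLA denotes the bovine leukocyte antigen system) the classical class II molecules are DR and DQ. The DQA genes encode the alpha chain and the DQB genes the beta chain of DQ. DQ is highly polymorphic, and bovine haplotypes also differ in whether the DQ genes are duplicated. An array probe is a short oligonucleotide of fixed sequence, so its signal depends on both the amount of a transcript and how well that transcript's sequence matches the probe.

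White blood cells of heifers of the Sanhe breed, a Chinese cattle breed, were profiled in 3 samples drawn before cold (numbered 4, 5 and 6) and 3 drawn after it (numbered 1, 2 and 3). All were female, shared a cowshed and ate a total mixed ration. Cold was 3 hours outdoors at -32 °C, then 15 hours in a cowshed at 5 °C, and at what point of this the blood after cold was taken is not stated. The 6 samples came from 3 animals out of 30, each sampled at both times, but which samples share an animal is not stated. Samples of 1 animal therefore stand on both sides of the comparison, and the p-values below treat the 6 arrays as separate.

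Values are log2 of the deposited probe set intensities, and array medians lay between 7.25 and 7.49. No intensity of 0 occurs in such a table, so a low signal is described by its place on its own array. That place is the percentage of the array's 12763 deposited probe sets with a lower value. Percentiles and shares of all probe sets below are over the same 12763, which need not be all that the array carries. The 10th percentile of the arrays lay between 4.67 and 5.20. Levels are compared between arrays for 1 probe set at a time and not between probe sets. In the names of Affymetrix probe sets, "_at" marks a set designed to be unique, "_a_at" a set for several transcripts of a gene, "_s_at" a set shared by transcripts of different genes, and "_x_at" a set with probes that may bind other sequences. Of the annotation's gene identifiers, those of BOLA-DQA2 (282535) and BOLA-DQB1 (539241) were found in the RefSeq gene table of assembly ARS-UCD2.0, and that of BOLA-DQA1 (282534) was not. In that table BOLA-DQA2 is followed by BOLA-DQB, BOLA-DQA5, BOLA-DQB1 and LOC100848815, which carries BoLA-DQA1 as a synonym, and then by BOLA-DRB3. Several DQ genes therefore lie side by side, and a probe set named for 1 of them may take up transcripts of another.

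Both BOLA-DQA1 probe sets, for a DQ alpha chain, took 3 separate levels over the 6 arrays. Bt.22867.1.S1_at was at 8.85, 10.24 and 5.51 on after 1, 2 and 3, and at 9.16, 5.40 and 10.23 on before 4, 5 and 6. It was thus lowest on after 3 and before 5, intermediate on after 1 and before 4, and highest on after 2 and before 6. The gap between the low and the intermediate arrays was 3.35 and that between the intermediate and the high arrays 1.07. Bt.22867.1.S1_x_at followed the same order, at 9.12, 10.26 and 6.04 after cold and 9.32, 6.54 and 10.31 before. On after 3 and before 5 the unique set stood above 19.5% and 15.2% of the array's probe sets, and the other above 27.8% and 33.2%. On after 2 and before 6 both stood above 92.0% to 92.5% of the probe sets. Each level was taken by 1 array after and 1 array before cold, so the groups overlapped fully.

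Both BOLA-DQA2 probe sets, for another DQ alpha chain known from duplicated haplotypes, were high on 4 arrays and low on the same after 3 and before 5 arrays. Bt.4751.1.S1_a_at was at 12.14, 12.64 and 3.29 after cold and at 12.13, 4.45 and 12.54 before. In deposited intensity units its after 3 value was 9.75 and its before 5 value 21.8, against 4490 to 6398 for the other 4. Only 1.62% of the probe sets of after 3 and 5.99% of those of before 5 lay lower, while on the other 4 arrays it stood above 98.3% or more. Bt.4751.2.S1_a_at was at 11.36, 11.70 and 5.61 after cold and at 11.37, 5.99 and 11.64 before. Its low values stood above 21.0% and 23.5% of the probe sets of their arrays. The gap between the low arrays and the next was 7.69 in the first set and 5.37 in the second.

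The 5 BOLA-DQB1 probe sets, for the DQ beta chain, showed 4 different patterns under a single gene name. Bt.4594.1.S1_at was at 12.27, 12.02 and 3.32 after cold and at 12.33, 3.82 and 11.84 before, the pattern of BOLA-DQA2. Its intensities of 9.99 on after 3 and 14.1 on before 5 stood above 1.78% and 2.59% of the array's probe sets, against 3655 to 5152 on the other arrays. Bt.7220.1.S1_at was low on another pair of arrays, at 11.38, 2.74 and 12.06 after cold and at 11.43, 11.89 and 2.86 before. Its intensities of 6.67 on after 2 and 7.25 on before 6 stood above 0.141% and 0.188% of the probe sets, against 2672 to 4261 elsewhere. The arrays on which Bt.7220.1.S1_at was lowest were therefore among those on which Bt.4594.1.S1_at was high, and the reverse also held. On after 1 and before 4 both were high.

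The other BOLA-DQB1 probe sets share the stem Bt.350.1.S1. Bt.350.1.S1_at was at 9.52, 10.43 and 6.62 after cold and at 9.19, 6.97 and 10.42 before, in the 3 levels seen for BOLA-DQA1. Bt.350.1.S1_x_at was at 9.91, 10.78 and 7.08 after and at 9.77, 7.68 and 10.56 before. Their lowest values stood above 37.7% and 46.8% of the probe sets of after 3, so neither was near the floor of the array. Bt.350.1.S1_s_at, the set meant for transcripts of several genes, was high everywhere, at 12.72, 12.28 and 13.47 after and at 12.86, 13.44 and 12.13 before. It stood above at least 98.4% of the probe sets of each array. It was highest on after 3 and before 5, where 7 of the other 8 DQ probe sets were lowest, and lowest on after 2 and before 6.

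**Figure D1:**
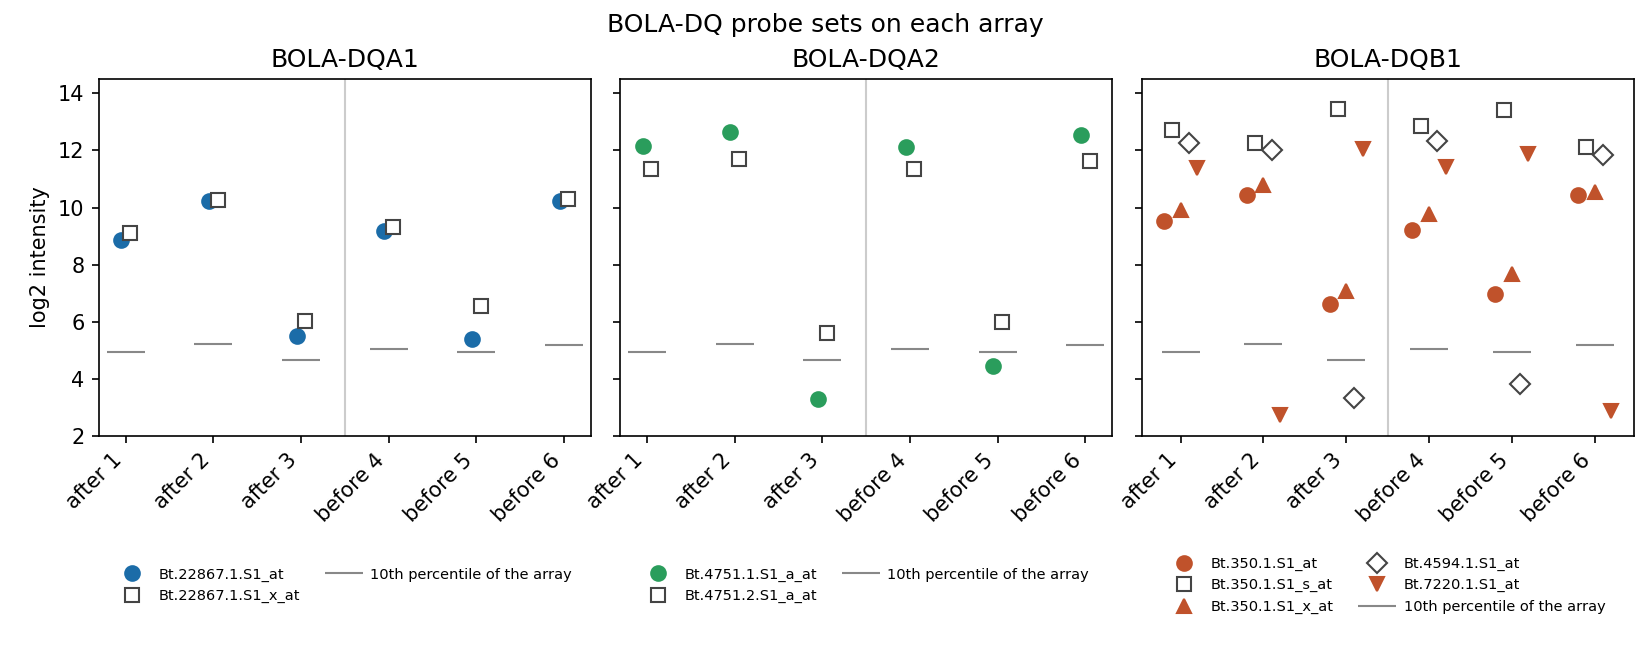
Log2 intensity of each DQ probe set (vertical axis) on each of the 6 arrays (horizontal axis; after cold left, before cold right), with a panel per gene, a symbol per probe set and a grey dash at the array's 10th percentile. After 3 and before 5 hold the low values of BOLA-DQA1, BOLA-DQA2 and 3 BOLA-DQB1 probe sets, while Bt.7220.1.S1_at is low on after 2 and before 6.

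Near absence was taken as a value below the array's 10th percentile in a probe set that exceeded the array median on at least 1 other array. It was met by 3 of the 9 DQ probe sets, Bt.4751.1.S1_a_at, Bt.4594.1.S1_at and Bt.7220.1.S1_at, each on 2 arrays. Over all probe sets 21 (0.165%) met it on at least 1 array and 13 (0.102%) on at least 2. The near absent values were 6 of the 54 DQ values, of which that of Bt.4751.1.S1_a_at on before 5 was nearest to the limit. Just outside it was Bt.22867.1.S1_at on before 5, at 15.2%. Detection calls were not used here, so whether these 6 values exceed background was not tested.

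The spread over arrays was larger in the DQ probe sets than in most of the table. The highest minus the lowest array was at least 2 log2 units in 8 of 9 DQ probe sets, against 5.07% of all probe sets. It was at least 4 in 6 of them, against 0.118%, and at least 9 in 3, against 0.0235%. Those 3 were the near absent ones, with 9.36, 9.32 and 9.01, and they were the widest of all 12763 probe sets. Bt.350.1.S1_s_at had the narrowest range of the 9, 1.34, near the median of 1.05 over all probe sets.

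Probe sets of the same DQ gene agreed in part. Agreement was measured as the root mean square (RMS) difference of log2 profiles over the 6 arrays after each profile was centred on its own mean. Over 2404 pairs of probe sets of 1419 genes, the DQ genes included, the median was 0.25 and the 95th percentile 0.76. The BOLA-DQA1 pair, whose names share the stem Bt.22867.1.S1, differed by 0.38, with the largest difference, 0.78, on before 5. Probe sets that share a stem may not be independent measures of a gene. Without before 5 it differed by 0.18. The BOLA-DQA2 pair differed by 1.33, with the largest difference, 2.24, on after 3, and by 0.96 without after 3. Of the same-gene pairs 0.874% differed by more than 1.33. The 10 BOLA-DQB1 pairs ran from 0.18 for Bt.350.1.S1_at and Bt.350.1.S1_x_at to 7.17 for Bt.4594.1.S1_at and Bt.7220.1.S1_at, and 9 of them exceeded the 95th percentile. Of the 2404 pairs 8 differed by more than 2, and all 8 were BOLA-DQB1 pairs.

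Some profiles were closer between DQ genes than within one. Bt.22867.1.S1_x_at of BOLA-DQA1 differed by 0.24 from Bt.350.1.S1_at and by 0.32 from Bt.350.1.S1_x_at, both of BOLA-DQB1. Bt.4751.1.S1_a_at of BOLA-DQA2 differed by 0.39 from Bt.4594.1.S1_at of BOLA-DQB1, which is less than from the other BOLA-DQA2 probe set. These were the 3 of 24 pairs of different DQ genes with a difference under 0.5. An alpha and a beta chain probe set thus shared the 3-level pattern, and another alpha and beta chain probe set shared the pattern of near absence on after 3 and before 5. The "_x_at" sets may bind other sequences, so likeness of their profiles does not show that separate transcripts were measured.

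**Figure D2:**
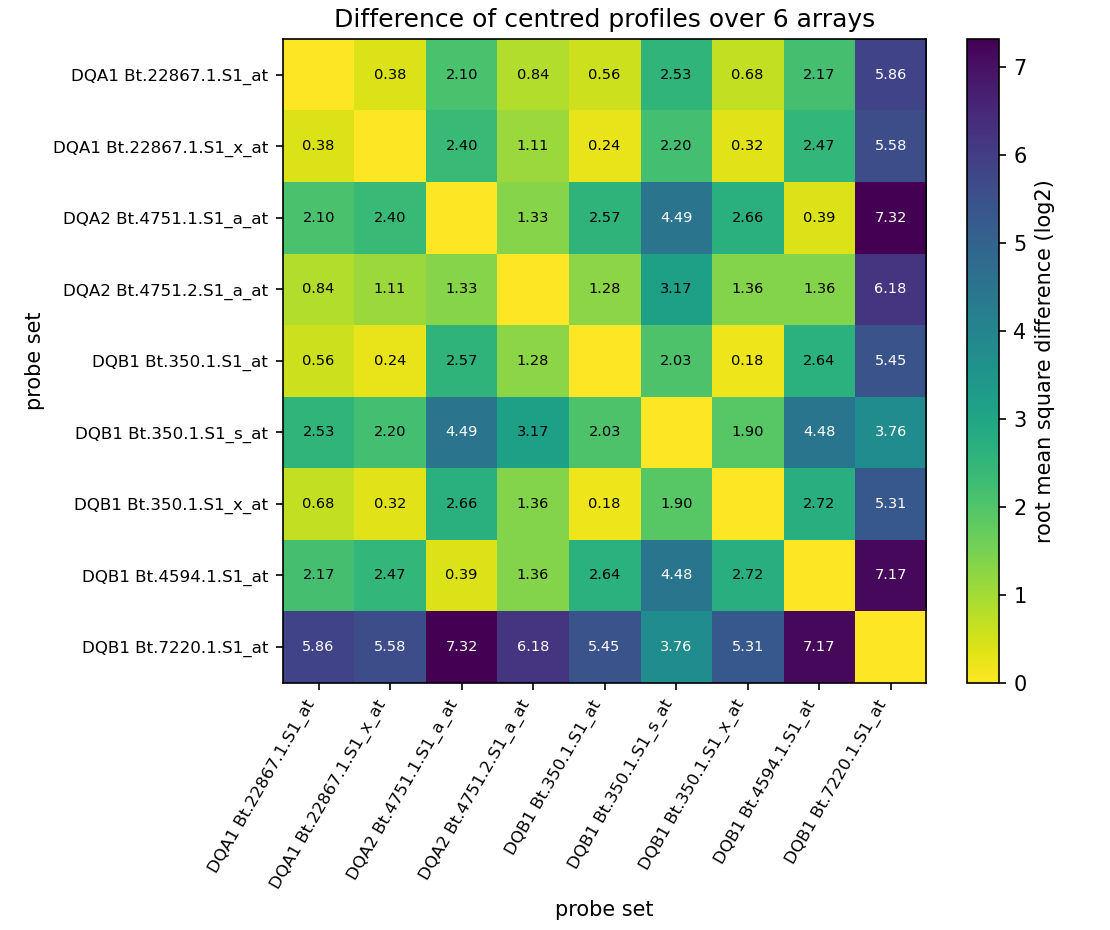
RMS difference in log2 units between the centred profiles of the 9 DQ probe sets, which are listed on both axes. The lowest value, 0.18, lies between Bt.350.1.S1_at and Bt.350.1.S1_x_at, and the highest, 7.32, between Bt.4751.1.S1_a_at and Bt.7220.1.S1_at, whose 8 pairs all lie at 3.76 or above.

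The comparison of the 3 arrays after cold with the 3 before asked whether DQ signal differed with cold exposure, and it found no difference that passed the test. At an adjusted p threshold of 0.05, limma called 0 of the 9 DQ probe sets and 0 (0%) of all 12763. At an unadjusted p under 0.05 there were 0 DQ probe sets, against 63 (0.494%) of all. The groups did not overlap in 0 of 9, against 4.38% of all probe sets. Bt.4751.1.S1_a_at had the largest difference, -0.35 ± 2.81 (SE) on the log2 scale, with means of 9.36 ± 5.26 over the arrays after and 9.71 ± 4.56 over those before (SD, n = 3 per group). Bt.22867.1.S1_x_at differed by -0.25 ± 1.20, and the other 7 lay between -0.12 and 0.01. All 9 had a limma adjusted p of 1.00. The mean was lower after cold in 8 of 9 with a median of -0.08, but in 5 of 9 with quantile normalization, 6 with median centring and 0 without before 4. Of all probe sets 6076 were lower and 6687 higher, with a median of 0.02. The standard errors ran from 0.43 to 2.93 log2 units. For the probe sets with the widest of them, even large changes in either direction could not be told from none.

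The size of these errors came from differences among arrays of 1 group. Leaving out after 3 moved the difference of Bt.4751.1.S1_a_at to 2.69 and leaving out before 5 moved it to -2.98, with limma adjusted p of 1.00 and 0.956. For Bt.7220.1.S1_at, leaving out after 2 gave 2.99 and leaving out before 6 gave -2.93, with adjusted p of 0.473 and 1.00. Without after 3 and before 5 together, a choice made after the values were seen, Bt.4751.1.S1_a_at differed by 0.06 ± 0.34 (SE) and Bt.4594.1.S1_at by 0.06 ± 0.32. Without after 2 and before 6 together Bt.7220.1.S1_at differed by 0.06 ± 0.33.

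Compared array by array, each array after cold had a near match in DQ values among the arrays before cold. Between after 2 and before 6 the 9 DQ probe sets differed by a median of 0.10 (absolute log2 difference) and at most 0.22. Between after 1 and before 4 the median was 0.14 and the largest difference 0.32. Between after 3 and before 5 it was 0.38, and the largest was 1.16, in the near absent Bt.4751.1.S1_a_at. In the remaining 12 pairs of arrays the median ran from 0.65 to 4.84, and the largest difference exceeded 8 in each. Over all other probe sets, after 2 and before 6 (0.11) and after 1 and before 4 (0.20) were again the closest pairs. After 3 and before 5 differed there by 0.41, more than before 4 and before 5 at 0.26. The labels do not name the samples of an animal, and these likenesses were not used to pair them.

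**Figure D3:**
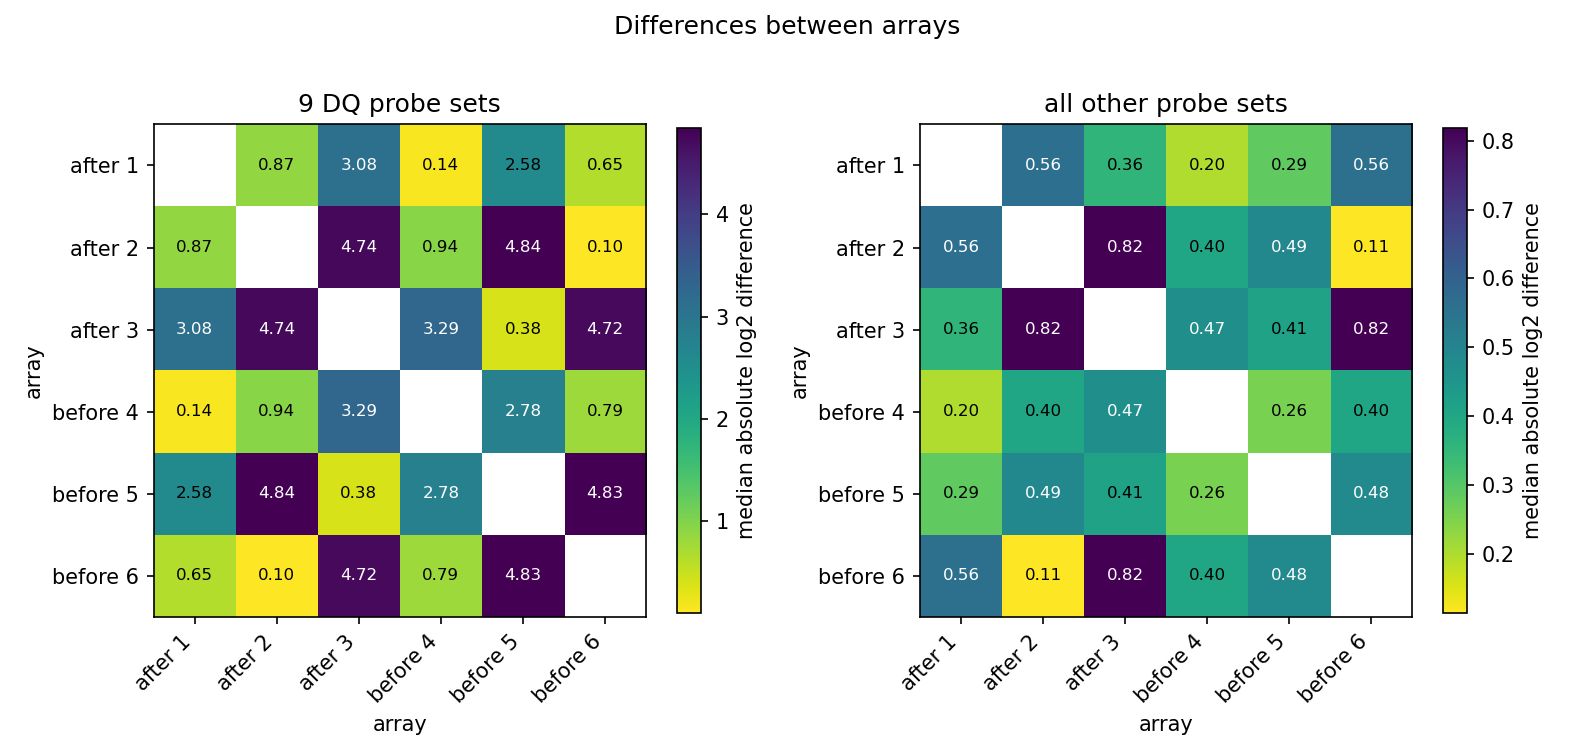
Median absolute log2 difference between each 2 arrays (both axes), over the 9 DQ probe sets on the left and over all other probe sets on the right, with a separate colour scale for each. On the left, after 1 with before 4, after 2 with before 6 and after 3 with before 5 have the lowest values, 0.14, 0.10 and 0.38.

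Each of the 6 ways to match an after with a before sample was also fitted as a block, and limma called 0 DQ probe sets at the adjusted threshold in any of them. With the matching 1-4, 2-6, 3-5, which has the smallest DQ differences and is shown for that reason, the standard errors of the 9 differences fell within 0.15 to 0.27. The smallest DQ adjusted p there was 0.517, for Bt.22867.1.S1_x_at at -0.25 ± 0.16 (SE, limma with block). Of all probe sets 0 (0%) passed the adjusted threshold in that fit, and 1168 (9.15%) had an unadjusted p under 0.05, with 0 of them DQ probe sets. Since the matching was picked by these values, its errors are a description. Under the other 5 matchings the largest DQ error ran from 2.05 to 2.93.

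**Figure D4:**
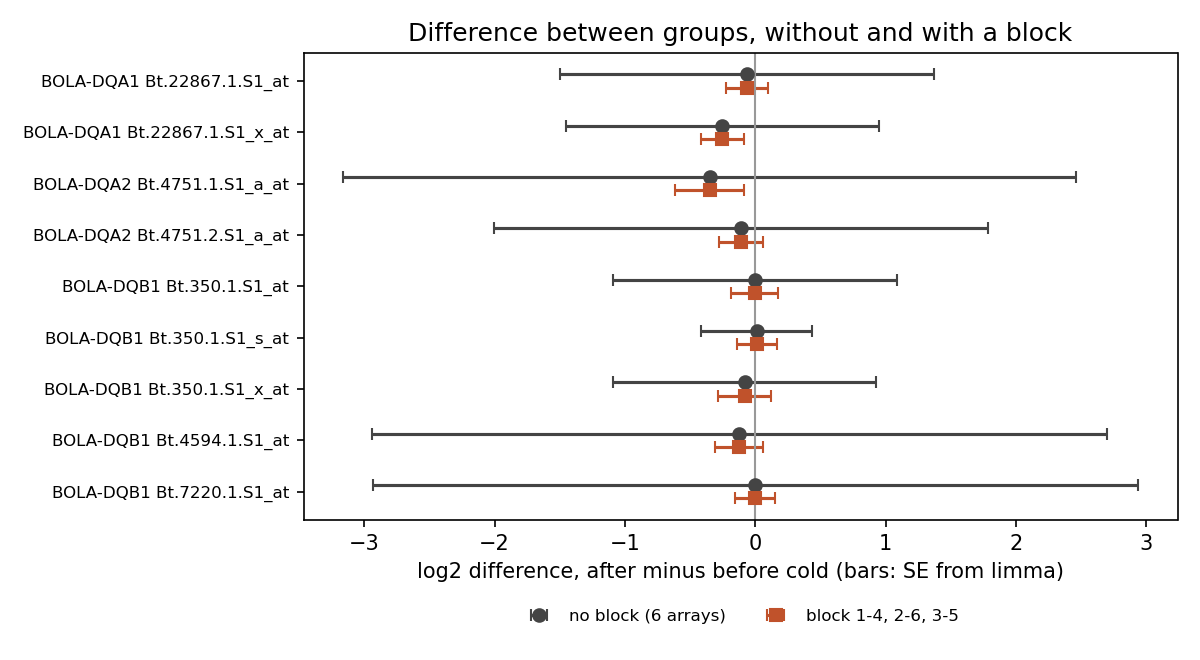
Log2 difference after minus before cold (horizontal axis) for each DQ probe set (vertical axis), with SE from limma as bars, for 6 arrays without a block (grey circles) and with the block 1-4, 2-6, 3-5 (orange squares). The differences are the same in both fits, from -0.35 to 0.01, while the errors reach 2.93 without the block and at most 0.27 with it.

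Other class II genes did not show the spread of DQ. BOLA-DRA, the DR alpha chain, was at 12.66, 12.90 and 13.10 after cold and at 12.82, 13.06 and 12.87 before, a range of 0.44. The BOLA-DRB3 probe sets, for the DR beta chain, had ranges of 1.03 (Bt.28011.1.S1_at) and 0.52 (Bt.5356.1.S1_s_at). BOLA-DMA and BOLA-DMB, whose product loads peptides onto class II molecules, had ranges of 0.82 and 0.97, and BOLA-DOA, a chain of the DM inhibitor DO, had 0.46. RFX5, a subunit of the factor that binds class II promoters, had ranges of 0.95 and 0.81 in its probe sets. On after 3 and before 5, where 7 DQ probe sets were lowest, BOLA-DRA, BOLA-DMB, BOLA-DOA and Bt.5356.1.S1_s_at of BOLA-DRB3 had their highest values. BOLA-DMA and Bt.28011.1.S1_at of BOLA-DRB3 instead had theirs on after 1 and before 4. Of 27 genes listed for class II presentation outside the 3 DQ genes, 14 were measured, and none was near absent on any array. Their means were higher after cold in 9 and lower in 5, with a median of 0.05, and 0 passed the limma threshold. BOLA-DMB differed by 0.05 ± 0.34 (SE), BOLA-DOA by 0.11 ± 0.25 and RFX5 (Bt.22646.1.S1_at) by 0.35 ± 0.28, each with a limma adjusted p of 1.00. The largest difference of the 14 was that of the protease CTSS, -0.68 ± 0.30 (SE, limma adjusted p of 1.00), named here after its values were seen. It was at 11.77, 12.11 and 11.21 after cold and at 12.21, 12.58 and 12.34 before. CTSS alone of the 14 had groups that did not overlap, beside 4.38% of all probe sets, and it also had the widest range, 1.37. CD74 and CIITA are not analysed here, as the annotation names neither as the sole gene of a probe set.

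**Figure D5:**
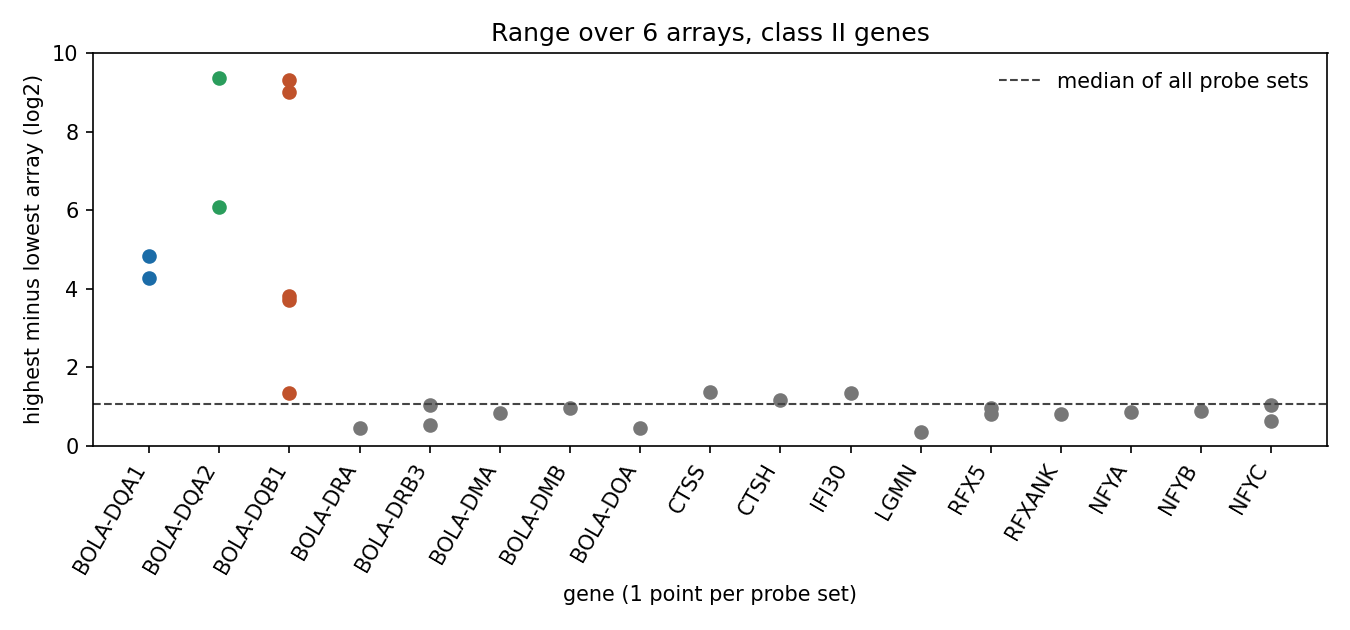
Highest minus lowest of the 6 arrays on the log2 scale (vertical axis) for each probe set (points) of the DQ genes and of the other measured class II presentation genes (horizontal axis), with the median of all probe sets as a dashed line at 1.05. The DQ probe sets other than Bt.350.1.S1_s_at lie between 3.70 and 9.36, and those of the other genes at 1.37 or below.

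Class II genes are expressed by some blood cell types, so markers of these were read on the same arrays as summed intensities. In bulk samples, fewer cells of a type and less RNA per cell cannot be told apart. The 4 measured B cell markers of 12, led by MS4A1 and CD79A, summed to 5423 to 6501 after and 5466 to 6499 before cold. On after 3 and before 5 they were at 6501 and 5850, and on after 2 and before 6 at 6379 and 6499, so on the arrays with low DQ signal this sum did not lie below the range of the other arrays. Of single B cell markers, BLK, a B cell kinase, was at 9.43 and 9.08 on after 3 and before 5 against 9.75 to 10.08 elsewhere. CD79A was at 9.88 and 9.71 on after 2 and before 6 against 10.23 to 10.95. On after 3 and before 5 CD79A instead had its highest values, 10.95 and 10.58. MS4A1 and POU2AF1, the other markers, lay below the remaining arrays on neither pair. The 6 monocyte markers of 10, led by FCN1 and CSF1R, summed to 5464 on after 3 and 5045 on before 5, against 2942 to 3422 on the other arrays. The 4 neutrophil markers of 9, led by S100A8 and S100A12, were at 24969 and 24614 on after 3 and before 5, against 16173 to 19914. The 12 T cell markers were at 14662 and 14294 there, against 16202 to 21972. The summed intensities of these 3 lists thus moved with the DQ pattern over arrays, and their part in it was not tested. Not every member followed its sum, as CD8A was highest on after 3, at 10.47, and MSR1 lowest there, at 4.04. The T cell list's median deviation from each marker's mean was 0.09 on after 3, above the -0.09 of after 2 and the -0.13 of before 6. The 3 dendritic cell markers of 10, among them IRF8 and FCER1A, summed to 1020 to 1469 after and 1007 to 1227 before, and this sum was lowest on after 2 and before 6, where Bt.7220.1.S1_at was near absent. The other member, CD1B, was instead lowest on after 3 and before 5, at 4.57 or less, against 5.66 to 6.15 elsewhere. The part of this list was not tested either.

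The marker lists also place the samples. All 4 B cell, all 4 neutrophil, 9 of 12 T cell and 3 of 6 monocyte markers exceeded the array median on all 6 arrays. None was near absent, but near absence requires a value above the median, so a marker dim on all arrays could not qualify. MSR1 was at 4.15 on after 1, where the 10th percentile was 4.92. CD28, a T cell marker, was at 4.52 on after 3, where it was 4.67. HBB, the red cell beta globin, and PF4, a platelet chemokine, had mean values of 12.01 and 12.58, so signal of red cell and platelet genes was present beside that of white cells. The 4 red cell and platelet genes of 10 summed to 12049 to 12901 after and 11539 to 14584 before cold. By direction, B cell markers had 3 higher and 1 lower mean after cold (median 0.11), monocyte markers 3 and 3 (-0.03), dendritic cell markers 1 and 2 (-0.15), T cell markers 6 and 6 (0.06), neutrophil markers 4 and 0 (0.15) and red cell and platelet genes 2 and 2 (-0.01). The 10 measured class I presentation genes of 15, such as B2M, the class I light chain, had 6 higher and 4 lower (median 0.10). In each of these lists 0 members passed the limma threshold.

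The profiles nearest to those of DQ were sought among the 311 other probe sets with a single symbol and a range of at least 2 log2 units, by RMS difference over the 6 arrays. GSTO1, an omega-class glutathione transferase, was nearest of these to 5 of the 8 DQ probe sets with such a range, at 0.52 for Bt.22867.1.S1_x_at to 2.39 for Bt.4594.1.S1_at. It was at 8.03, 7.86 and 4.09 after cold and at 7.67, 4.53 and 7.61 before, and so low on after 3 and before 5. A class I probe set left out of the search, as it lists BOLA-N beside another gene, had a wider range, 7.91 against 3.93 for GSTO1. Chosen after its values were seen, it was at 10.41, 9.14 and 2.55 after cold and at 10.42, 2.51 and 9.36 before. Its RMS difference from the DQ probe sets was not computed. PNISR was nearest to Bt.350.1.S1_at (0.50) and Bt.350.1.S1_x_at (0.38), with 7.42, 7.90 and 5.03 after and 7.05, 5.88 and 7.97 before. After these came HLF, a transcription factor, for the BOLA-DQA1 sets and the same BOLA-DQB1 sets, at 0.52 to 1.10, and ABLIM1 for both BOLA-DQA2 sets and Bt.4594.1.S1_at, at 1.74 to 3.07. For Bt.7220.1.S1_at no profile among the 311 came closer than 3.17, that of the defensin DEFB4A, followed by CYP27A1 at 3.23 and PRSS2 at 3.23. Probe sets with several symbols or none were not searched, so closer profiles may lie among them. A probe set that lists GNLY beside another symbol, chosen after its values were seen, was at 11.88, 6.70 and 11.86 after cold. Before cold it was at 11.63, 11.57 and 6.70, so it too was lowest on after 2 and before 6.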

How the data were processed

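RNA of white blood cells (100 ng per sample, per the labels' protocols) was labelled with biotin and hybridised to an Affymetrix bovine array. The intensity values deposited by the authors are linear, and the submitters' processing notes name GCOS and RMA without versions. As a method, RMA corrects background, aligns arrays and summarises probes. The medians of the deposited arrays nonetheless ran from 7.25 on after 3 to 7.49 on after 2, and the reason was not tested. The genome build and probe filter are not given in the sources used. Probe sets were named by the platform annotation: 8125 had a single symbol, 56 several and 4582 none.

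Log2 intensities of all 12763 probe sets were fitted in R 4.3.3 by limma 3.58.1, as the difference after minus before cold, with no block, filter or further normalization, and Benjamini-Hochberg adjustment. With groups of 3, the smallest p of an exact permutation test would be 0.1. Within a group the 3 arrays stand for 3 animals, as the design text is read here, so errors measure the spread between animals and arrays together. The number of arrays limits the precision. The script was tested on simulated data.

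The genes named by rule are all DQ probe sets and the 3 nearest profiles of each with a range of at least 2. The rule also takes the measured DR, DM, DO and RFX5 genes, and up to 2 genes of highest mean per other list. Genes outside the rule, among them BLK, POU2AF1, CD8A, CD28, MSR1, CD1B, LMNA, PYGM and CTSS, were named after their values were seen. A listed gene with several probe sets was represented by the one with the highest mean. The members and the 8 gene lists were chosen with earlier results of these data known. Python 3.11.15 served for the other computations. No probe, promoter or protein sequences were used here.

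Alternatives were quantile normalization, median centring, leaving out the dimmest 25% of probe sets, an intensity trend, array weights, leaving out each array, each of the 6 matchings as a block, and the 5th and 20th percentile for near absence.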

Additional observations from a re-analysis of the deposited data

How the results depend on the processing

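In every alternative run, limma called 0 DQ probe sets and 0 of all probe sets at an adjusted threshold of 0.05, and with the unadjusted p the calls became 63 over all and 0 for DQ. DQ differences changed sign in 38 of 171 refits, none of them past the threshold. On leaving out each array they ran from -1.50 to 1.28 (Bt.22867.1.S1_at), -1.35 to 0.96 (Bt.22867.1.S1_x_at), -2.98 to 2.69 (Bt.4751.1.S1_a_at), -1.95 to 1.86 (Bt.4751.2.S1_a_at), -0.95 to 1.11 (Bt.350.1.S1_at), -0.33 to 0.33 (Bt.350.1.S1_s_at), -0.91 to 1.01 (Bt.350.1.S1_x_at), -2.88 to 2.82 (Bt.4594.1.S1_at) and -2.93 to 2.99 (Bt.7220.1.S1_at). Signs also turned with quantile normalization for Bt.22867.1.S1_at (0.0031), Bt.350.1.S1_at (0.048) and Bt.7220.1.S1_at (0.023), and with median centring for Bt.350.1.S1_at (0.029) and Bt.7220.1.S1_at (0.033). Without after 3 and before 5 together, an alternative added after the data were seen, they turned for Bt.4751.1.S1_a_at (0.056), Bt.4751.2.S1_a_at (0.027), Bt.350.1.S1_at (0.16), Bt.350.1.S1_x_at (0.18) and Bt.4594.1.S1_at (0.064), and without after 2 and before 6 together, also added, for Bt.350.1.S1_s_at (-0.054) and Bt.7220.1.S1_at (0.059). The cause of these sign changes was not tested. Refits that left arrays out, where most of the sign changes fell, used fewer arrays than the main fit. The 6 near absent values became 5 with the 5th percentile, 8 with the 20th and 6 with quantile normalization. The RMS difference of the BOLA-DQA1 pair ran from 0.18 (without before 5) to 0.42 on leaving out each array. Array weights ran from 0.0019 for after 1 to 30.7 for before 4, so that fit rested on few arrays, and the median DQ difference in it was -1.51 against -0.08. No paired analysis was possible because the labels give the groups no shared sample numbers, and the 6 matchings stand in for it. Limits set by dim signal were not tested, as detection calls were not used here.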

Other observations

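Beside the 3 DQ probe sets, 10 others were near absent on at least 2 arrays. On after 2 and before 6, where the BOLA-DQB1 probe set Bt.7220.1.S1_at was low, these included LMNA, a nuclear lamin (5.07 and 4.87, against 6.11 to 7.63 elsewhere), DEFB4A, a defensin (5.04 and 4.54, against 6.57 to 7.55), and PYGM, the muscle form of glycogen phosphorylase (5.19 and 5.14, against 6.28 to 7.65). On after 3 and before 5, where most DQ probe sets were low, GSTO1 was at 4.09 and 4.53. Of the other 6 of the 10, 3 carry several class I gene symbols and 3 have no entry in the annotation, so none of them is named. The 3 with class I symbols all list BOLA-N beside other symbols, and 2 of them were also low on after 3 and before 5. In 1 of these the values there were 2.97 and 2.99 (against 6.86 to 7.77), and in the other 2.55 and 2.51 (against 9.14 to 10.42). The remaining class I probe set went the other way, at 7.62 on after 3 and 6.45 on before 5, against 4.28 to 4.91 elsewhere.

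The probe set annotated to the class I gene BOLA-N alone, chosen after its values were seen, was highest on the arrays where BOLA-DQA1 was lowest. Its values after cold were 8.80, 11.37 and 14.15 on arrays 1, 2 and 3, and before cold 8.75, 14.13 and 11.53 on arrays 4, 5 and 6. Like BOLA-DQA1 it took 3 levels, each on 1 array after and 1 before cold, but its lowest level fell on after 1 and before 4, where BOLA-DQA1 was intermediate. PLAC8A, also chosen after its values were seen, had 10.20 on after 1, 9.46 on before 4 and at most 7.72 on the other arrays.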
